A study of Mus musculus with 5 samples.

Results

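Kinesins are motor proteins that use ATP to move along microtubules or to take them apart. One set of them builds and resolves the mitotic spindle and is made mainly by dividing cells, while another carries vesicles, organelles and the parts of cilia. In endothelium, the cell layer that lines blood vessels, transport kinesins move receptors, secretory granules and mitochondria. The kinesin family was followed here by name, as every probe set whose single gene symbol was Kif with a number or Klc1 to Klc4. This gave 27 genes and 65 probe sets, out of 12393 genes and 20380 probe sets with 1 symbol. The mitotic class was set as Kif2c, Kif4, Kif11, Kif20a, Kif20b, Kif22 and Kif23, and of these 7 genes 6 were measured, with 15 probe sets. The transport class took the other 21 genes, with 50 probe sets. It includes Kif2a and Kif18a, which also act in division. Kif20b, Kif13b, Kif14, Kif15, Kif18b, Kif24, Kif7, Kif26a, Kif26b, Kif27 and Klc2 were not analysed here.

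Expression was measured on single-colour Affymetrix arrays in thymic endothelial cells of female C57BL/6J mice aged 6 to 8 weeks. The 3 day 0 arrays came from untreated mice and the 2 day 4 arrays from mice harvested 4 days after a whole-body dose of 550 cGy that was sublethal, given from a cesium source and without hematopoietic rescue. In both groups blood cells were removed with magnetic CD45 beads, and flow sorting then kept VE-cadherin-positive cells without CD45 or EpCAM. The labels call the day 4 cells CD45- thymic stromal cells and the day 0 cells thymic endothelial cells, while 1 protocol covers both. Each array held RNA pooled from several mice, so the spread between arrays is that between pools and may be partly technical.

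Values are log2 signals made by the authors with GCRMA, 1 per probe set and array, and changes are day 4 minus day 0. A probe set was tested if it lay above 4 on at least 2 arrays, and a gene was represented by its tested probe set with the highest mean. Levels are compared between arrays for 1 probe set at a time, never between probe sets. Of 8940 genes tested with limma, 255 had an adjusted p under 0.05, which is 2.85%. For 41.1% of them the day 4 arrays did not overlap the day 0 arrays. All 8 endothelial markers examined, Cdh5, Pecam1, Kdr, Tek, Tie1, Emcn, Egfl7 and Esam, lay between 7.95 and 11.64 on every array. Of these 0 passed the test (1 at an unadjusted p under 0.05). Among their changes 7 were below 0 and 1 above, with a median of -0.16, beside 54.3% below 0 over all genes tested. The largest was -0.40, for Tek.

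Of the 27 kinesin genes, 17 passed the level filter and were tested, 4 mitotic and 13 transport. A single kinesin gene passed the threshold, the mitotic motor gene Kif22, which fell. That is 1 lower gene of 17, beside 1.35% called lower among all genes tested, and 0 higher, beside 1.50%. The other 16 tested genes did not pass, and 4 of the 17, Kif22 included, had an unadjusted p under 0.05, where 21.2% of all genes did. Of the 17, 3 had day 4 arrays below all day 0 arrays and 2 had them above, beside 23.0% and 18.0% of all genes tested. The 10 genes that failed the filter were Kif11 and Kif20a of the mitotic class and Kif1a, Kif5c, Kif9, Kif12, Kif18a, Kif21a, Kif21b and Klc3 of the transport class. Their probe sets were above 4 on no array and may lie near the background, so a change in them would be hard to see on these arrays.

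Kif22 encodes a chromokinesin, a motor bound to chromosomes that pushes their arms toward the middle of the spindle. Its tested probe set read 6.39, 6.20 and 6.15 at day 0 and 5.25 and 5.62 at day 4. Both irradiated pools lay below all 3 untreated pools, and the lowest untreated value stood 0.53 above the highest irradiated one. The mean went from 6.25 ± 0.12 (SD, n = 3) to 5.44 ± 0.26 (SD, n = 2), which is 1.76-fold lower at day 4. The log2 change was -0.81 ± 0.14 (SE), with a 95% interval of -1.16 to -0.47 and a limma adjusted p of 0.0448. The other 2 probe sets of Kif22 were never above 4, but both had day 4 means below their day 0 means, by -0.93 and -0.42. The first of them read 3.96, 3.79 and 3.77 at day 0 against 3.27 and 2.55 at day 4, with no overlap. The other read 3.29, 3.51 and 3.77 against 2.73 and 3.48, and its groups overlapped. The tested probe set is of the type that the array maker marks as open to cross-hybridization with other transcripts (suffix x_at), and the set with the change of -0.93 is of the type shared between transcripts (s_at), so the signal may not be of Kif22 alone. The call was lost without day 0 replicate 1 (adjusted p = 0.114), day 0 replicate 2 (0.112) or day 0 replicate 3 (0.119). The change was then -0.742, -0.834 and -0.860. Leaving out a day 4 array gave changes of -0.627 (replicate 1) and -0.998 (replicate 2). The call was also lost with array weights (adjusted p = 0.0826) and when all probe sets were tested in place of genes (0.0614).

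**Figure D1:**
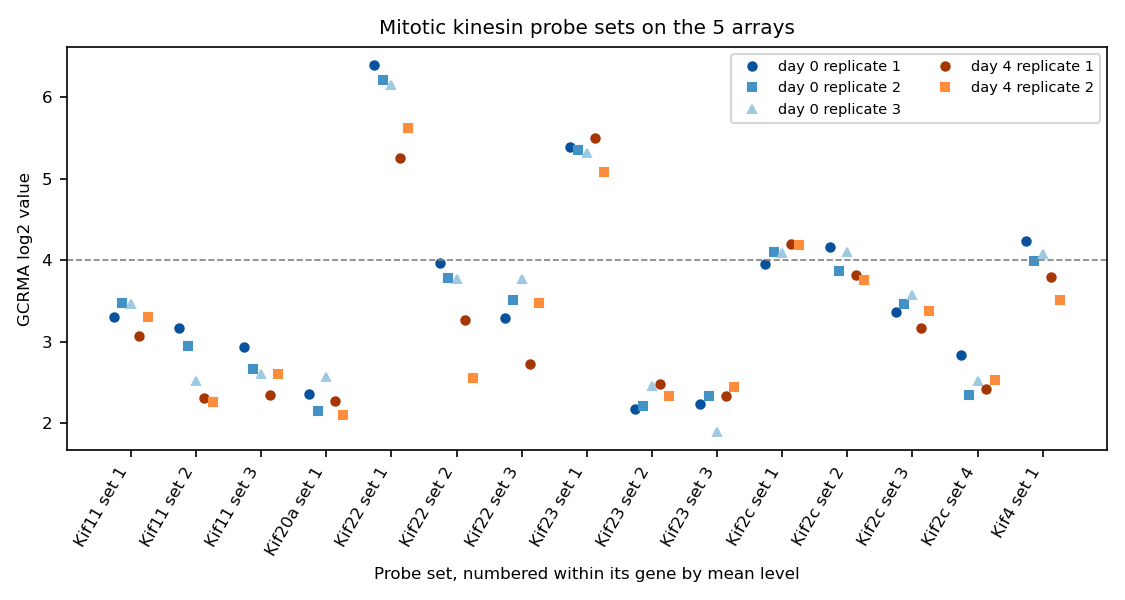
GCRMA log2 values (vertical axis) of the 15 mitotic kinesin probe sets (horizontal axis) on the 5 arrays, blue for day 0 and orange or brown for day 4, with a dashed line at the level filter of 4. The first Kif22 set reads 6.15 to 6.39 at day 0 and 5.25 to 5.62 at day 4, and 10 of the 15 sets lie at or below the line on all 5 arrays.

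Kif4 encodes the other chromokinesin of the class, which also sets the length of the central spindle together with Prc1. Its 1 probe set read 4.23, 3.99 and 4.08 at day 0 and 3.80 and 3.51 at day 4, so the groups did not overlap. The log2 change was -0.44 ± 0.13 (SE), which missed the threshold (limma adjusted p = 0.129). Kif4 entered the test only through 2 day 0 arrays just above the filter, and its day 4 values lay below it. Kif23, the motor of the centralspindlin complex that prepares the cell for cytokinesis, read 5.38, 5.35 and 5.31 at day 0 and 5.49 and 5.08 at day 4. The day 4 pools stood on either side of the day 0 pools, and the change was -0.06, with a 95% interval of -0.40 to 0.27. The other Kif23 probe sets, never above 4, changed by 0.24, with no overlap, and by 0.13, with overlap. Kif2c, which depolymerizes microtubules to correct their attachment to kinetochores, read 3.95, 4.10 and 4.09 at day 0 and 4.19 on each day 4 array. Its day 4 pools lay above the day 0 pools, by 0.15 on average (adjusted p = 0.424). A further Kif2c probe set past the filter read 4.16, 3.86 and 4.10 against 3.81 and 3.76 and changed by -0.26. It is of type x_at and passed through day 0 arrays alone. The Kif2c sets under the filter changed by -0.09 and -0.19, with overlapping groups. The direction for Kif2c thus depends on the probe set.

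Kif11, whose product slides spindle poles apart and is the target of several antimitotic drugs, had 3 probe sets, none above 4 on any array. Their changes were -0.59, -0.26 and -0.23. The set with -0.59 read 3.17, 2.95 and 2.52 at day 0 and 2.32 and 2.26 at day 4. Kif20a, which carries the chromosomal passenger complex to the spindle midzone, read 2.36, 2.15 and 2.57 against 2.27 and 2.10, with overlapping groups. Over the 15 mitotic probe sets 12 had a change below 0, beside 49.7% of all 20380 probe sets with 1 symbol. Of the 12, 8 were never above 4, where values may be mostly background, and several share a gene. No background level was estimated.

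The mitotic genes as a class were described without a test, since their members were picked by name and are not replicates. Their median change was -0.20 over all 6 measured genes and -0.25 over the 4 tested ones. The latter includes Kif4, which passed the filter through day 0 arrays alone, and over the other 3 tested genes the median was -0.06. The transport class had a median of -0.04 over its 13 tested genes and of -0.04 over all 21. All 8940 genes tested had a median of -0.02. Set against each gene's day 0 mean, the 6 measured mitotic genes had medians of 0.016, -0.020 and 0.0086 on the day 0 arrays and of -0.20 and -0.27 on the day 4 arrays. These medians were lower on both irradiated pools. The day 0 medians lie near 0 because each gene was centred on its day 0 mean. The 6 genes include Kif11 and Kif20a, which failed the filter. Kif2c lay higher at day 4, and the day 4 pools of Kif23 stood on either side of the day 0 pools. Over all 12393 genes the medians were 0.0098, -0.0016 and -0.0066 at day 0 and -0.045 and 0.0082 at day 4. For the 21 transport genes the medians were -0.047, 0.012 and 0.033 at day 0 and -0.13 and 0.021 at day 4, so that the day 4 pools stood on either side of the day 0 median of 0.012. The mitotic median of the tested genes rested on day 4 replicate 2: it was -0.43 without day 4 replicate 1 and -0.08 without day 4 replicate 2. With Kif2a, which also acts in division, moved into the mitotic class it was -0.14.

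**Figure D2:**
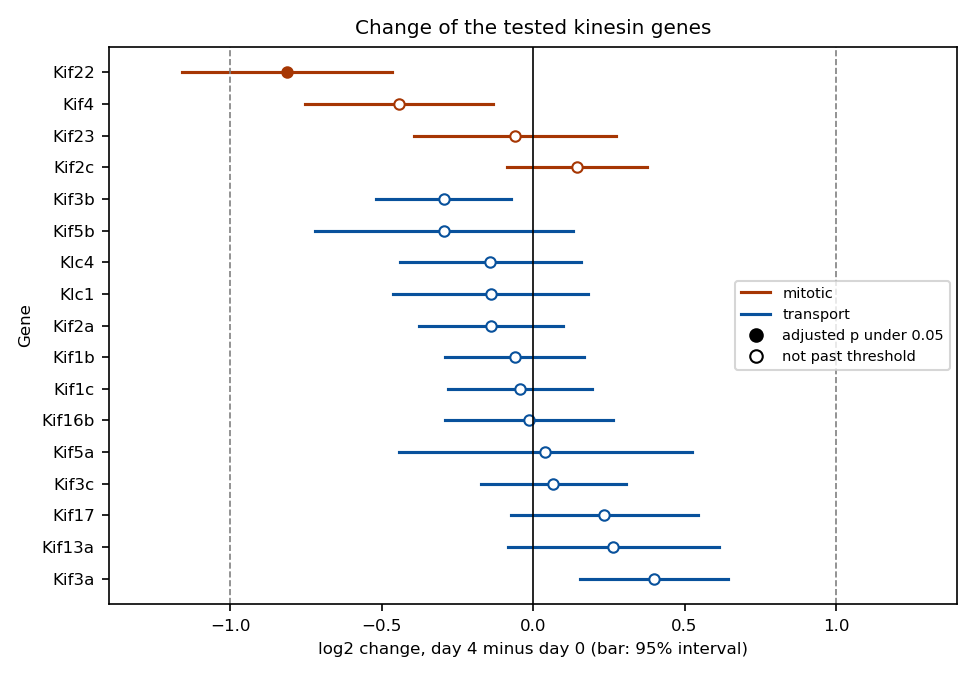
Log2 change from day 0 to day 4 (horizontal axis) of the 17 tested kinesin genes (vertical axis), with bars for the 95% limma interval, a filled point for an adjusted p under 0.05 and dashed lines at 2-fold. Kif22 at -0.81 is the filled point, and the bars of all 13 transport genes lie between -0.72 and 0.64.

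The 250 bases upstream of the RefSeq start sites were set beside these values, because genes of mitosis often carry a cell cycle homology region (CHR, letters TTTGAA) near the start, downstream of CCAAT boxes. Windows were found for 23 of the 27 genes, 27 windows in all (RefSeq, build GRCm38.p6). Kif5a, Kif5b, Kif20a and Kif21b had none. In each sequence the capitals mark TTTGAA or CCAAT on either strand, so TTCAAA and ATTGG are matches on the opposite strand. The motifs did not overlap one another. Kif22 is shown as the gene that passed the test, Kif11 because it too has a CHR match close to the start, downstream of a CCAAT box, and Kif4 as the mitotic gene with the next largest change among those tested.
Kif22 (chr7:127042421-127042670, minus strand): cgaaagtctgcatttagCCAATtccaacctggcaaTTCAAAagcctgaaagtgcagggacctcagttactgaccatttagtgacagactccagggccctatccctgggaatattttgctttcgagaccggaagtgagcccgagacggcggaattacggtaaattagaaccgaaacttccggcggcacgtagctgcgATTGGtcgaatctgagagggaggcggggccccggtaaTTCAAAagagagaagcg
Kif11 (chr19:37376132-37376381, plus strand): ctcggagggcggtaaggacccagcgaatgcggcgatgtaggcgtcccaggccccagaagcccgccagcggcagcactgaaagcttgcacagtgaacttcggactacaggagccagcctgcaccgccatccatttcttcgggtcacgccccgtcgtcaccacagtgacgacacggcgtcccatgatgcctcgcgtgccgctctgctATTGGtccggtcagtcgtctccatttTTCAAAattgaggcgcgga
Kif4 (chrX:100625815-100626064, plus strand): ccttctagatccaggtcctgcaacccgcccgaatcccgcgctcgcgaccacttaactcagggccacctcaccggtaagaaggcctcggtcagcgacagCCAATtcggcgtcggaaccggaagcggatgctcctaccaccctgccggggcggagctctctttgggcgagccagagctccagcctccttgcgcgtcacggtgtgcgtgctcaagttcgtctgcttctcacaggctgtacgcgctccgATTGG
In Kif22 CCAAT boxes began 233 and 54 bases before the start, and CHR matches 215 and 17 bases before it. Kif11 held 1 of each, at 45 and 19 bases. Kif4 had CCAAT boxes at 152 and 5 bases and no TTTGAA. Among mitotic kinesins, 3 of 5 genes with a window held TTTGAA (Kif2c, Kif11 and Kif22), and 2 of 5 held both motifs. Among transport kinesins 1 of 18 genes held TTTGAA, and this was Kif1a. CCAAT was held by 4 of 5 mitotic and 5 of 18 transport genes, and both motifs by 0 of the 18. Over the whole promoter table, in windows of this length, TTTGAA was found in 18.3% of genes, CCAAT in 37.5% and both in 6.5%. Kif11 and Kif22 thus share this pair close to the start, but Kif11 was too low on these arrays to be tested. A match describes the letters and is not a measured binding site.

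The kinesin partners in division, 20 genes fixed by name such as passenger proteins and spindle proteins, gave 11 tested genes. Of these 2 fell and 0 rose, beside 1.35% called lower and 1.50% called higher among all genes tested. All 11 changes were below 0, with a median of -0.27, but 3 of the 11 (Birc5, Tpx2 and Racgap1) were above 4 on day 0 arrays alone, and a filter met through 1 group favours genes high in it. Over all 19 measured partners, with no filter, 17 changes were below 0, with a median of -0.39. The share of changes below 0 was 54.3% over all genes tested and 53.4% over all genes with no filter. Birc5, the survivin subunit of the passenger complex, read 5.15, 4.87 and 5.03 at day 0 and 3.27 and 2.96 at day 4. Birc5 changed by -1.90 ± 0.14 (SE; limma adjusted p = 0.00566). The day 4 values lay below the filter, so the size of the fall rests on values that may be background. Prc1, which bundles the microtubules of the central spindle and binds Kif4, read 5.69, 5.34 and 5.32 against 4.65 and 4.47. It fell by 0.89 on the log2 scale (limma adjusted p = 0.0369). Its probe set is of the type shared between transcripts (s_at), so the signal may not be of Prc1 alone. Birc5 passed without any single array, while Prc1 was no longer called without any 1 of the 5, and the count of called partners was 1 to 2. Racgap1, which pairs with Kif23 in centralspindlin, differed by -0.11 (adjusted p = 0.617), and Kifc1, a spindle motor of the kinesin-14 family, by -0.27 (adjusted p = 0.243).

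Signal of other cells moved between the groups as well. The counts below stand beside 1.35% called lower and 1.50% called higher among all genes tested. Of 12 tested thymocyte markers 8 fell and 0 rose, 3 of the 8 (Rag1, Ccr9 and Cd8b1) with values above 4 on day 0 arrays alone, and the mean level of the 14 measured ones was 5.38 to 6.01 on the day 0 arrays and 4.12 to 4.28 on the day 4 arrays. Their summed linear signal was 771 to 1289 at day 0 and 334 to 410 at day 4, and Rag2 was above 4 on no array. Both tested B cell markers fell, with a mean level over 3 markers of 4.16 to 4.27 against 3.24 to 3.27 and a summed linear signal of 57.0 to 61.6 against 29.0 to 29.3. Cd79a was above 4 on no array, and the day 4 values of both that fell lay under the filter. Of 9 tested myeloid markers 4 rose and 0 fell, 2 of the 4 (Cd163 and Vsig4) with values above 4 on day 4 arrays alone and Fcgr1 above 4 on 1 day 0 array, and the mean level of 10 markers was 5.05 to 5.87 at day 0 and 6.92 to 7.01 at day 4. The myeloid summed linear signal was 714 to 1443 at day 0 and 2479 to 3195 at day 4, with Itgam above 4 on no array. Of the 6 tested thymic epithelial markers 0 passed (1 at an unadjusted p under 0.05), and their mean level over 7 markers was 6.54 to 7.19 against 5.69 to 6.75. Their summed linear signal was 1556 to 2724 against 738 to 1809, with Foxn1 above 4 on no array. Of 5 fibroblast and 5 mural markers 0 passed, each with 1 at an unadjusted p under 0.05. Their signal was present in both groups. The mean level of the fibroblast markers was 8.18 to 8.47 at day 0 and 8.19 to 8.60 at day 4. For the mural markers the lowest mean level was 8.87 at day 0 and 8.81 at day 4. The mural marker Rgs5 read 12.23, 12.35 and 12.29 at day 0 and 12.05 and 12.07 at day 4. Without day 4 replicate 1 the calls were 0 thymocyte, 0 B cell and 0 myeloid markers, and without day 0 replicate 3 they were 1, 0 and 1. They were 5, 1 and 8 without day 0 replicate 1, 8, 2 and 4 without day 0 replicate 2, and 4, 1 and 1 without day 4 replicate 2. The part of these cells in the values of Kif22, Birc5 and Prc1 was not tested. In sorted bulk RNA, fewer dividing cells and less RNA of a gene in each cell cannot be told apart.

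**Figure D3:**
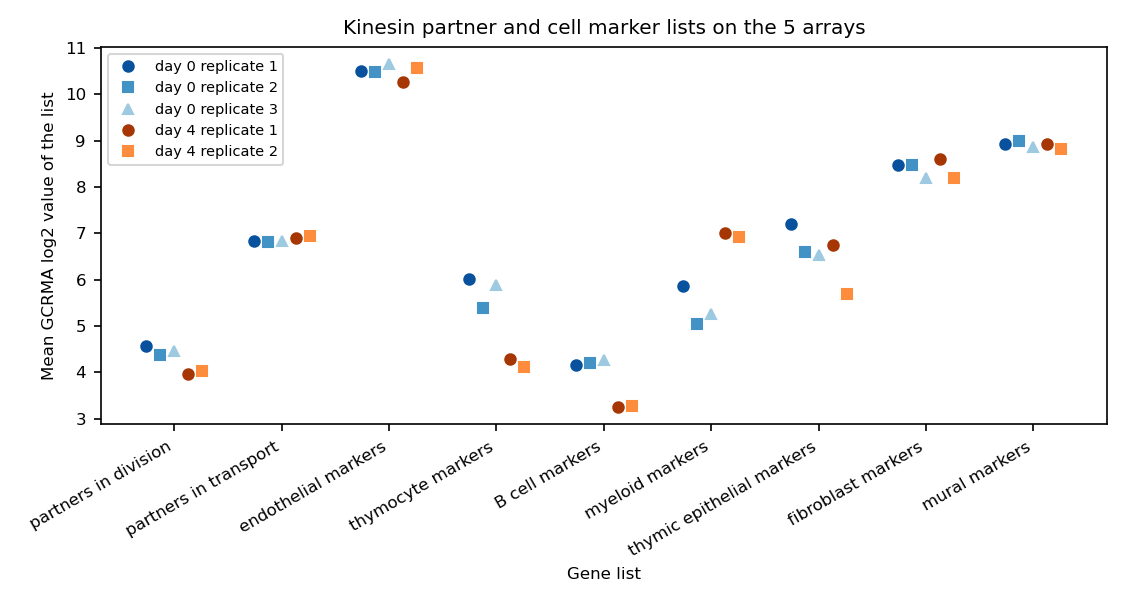
Mean GCRMA log2 value (vertical axis) of each list of kinesin partners or cell markers (horizontal axis) on the 5 arrays, blue for day 0 and orange or brown for day 4. Thymocyte markers lie at 5.38 to 6.01 at day 0 and 4.12 to 4.28 at day 4, and partners in transport at 6.81 to 6.94 over both groups.

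Among the transport kinesins, 0 of 13 tested genes passed the threshold and 2 had an unadjusted p under 0.05. Over all genes tested these shares were 2.85% and 21.2%. For each of the 13 the 95% interval of the highest probe set lay within 2-fold in either direction. The lowest bound was -0.72, for Kif5b, and the highest 0.64, for Kif3a. The widths of these intervals went from 0.44 to 0.97 on the log2 scale, so changes of less than 2-fold could be present in any of them. Other probe sets past the filter reached beyond 2-fold in a fit of all probe sets. The further Kif3a set had an interval of -0.18 to 1.35, and 2 Kif5b sets had intervals of -0.66 to 1.19 and -0.93 to 1.32. Of 10 kinesin genes with at least 2 probe sets past the filter, 7 had changes of both signs. The same share over all genes was not counted, so this is not read as a trait of the family.

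Kinesin-2 carries cargo along cilia and vesicles in the cell body, with Kif3a paired to Kif3b or Kif3c as its motor subunits and Kifap3 as the adaptor. Kif3a read 5.17, 5.22 and 5.35 at day 0 and 5.69 and 5.60 at day 4, so the day 4 pools lay above the day 0 pools. Its change of 0.40 ± 0.10 (SE) did not pass (limma adjusted p = 0.0963). A further Kif3a probe set read 4.17, 5.24 and 5.24 against 5.47 and 5.47. It too lay higher at day 4, by 0.59, and by 0.23 without day 0 replicate 1. Kif3b read 5.24, 5.33 and 5.35 at day 0 and 4.99 and 5.04 at day 4, with the day 4 pools below. Its change was -0.30 ± 0.09 (SE; adjusted p = 0.144), and a further Kif3b probe set gave 0.36. The set with -0.30 is of the type shared between transcripts (s_at), and the Kif3b sets under the filter gave -0.003 and 0.03. The partner subunits thus differed in sign on their highest probe sets, with neither past the threshold. That difference between the genes was not tested, since the pair was picked after the values were seen.

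Kif3c changed by 0.07 (95% interval -0.17 to 0.31) and the adaptor gene Kifap3 by -0.21 (adjusted p = 0.347). Kif17, the motor of the kinesin-2 family that works as a homodimer, read 4.23, 4.18 and 4.45 at day 0 and 4.41 and 4.64 at day 4. Its groups overlapped, and its change was 0.24 (adjusted p = 0.341). The other Kif17 probe sets, never above 4, changed by 0.32, with no overlap, and by -0.06, with overlap. The upstream windows of Kif3a and Kif3b are shown as those of the partner subunits whose highest probe sets differed in sign. In Kif3a 1 CCAAT box began 18 bases before the start and in Kif3b 1 began at 69 bases, and neither window held TTTGAA.
Kif3a (chr11:53567119-53567368, plus strand): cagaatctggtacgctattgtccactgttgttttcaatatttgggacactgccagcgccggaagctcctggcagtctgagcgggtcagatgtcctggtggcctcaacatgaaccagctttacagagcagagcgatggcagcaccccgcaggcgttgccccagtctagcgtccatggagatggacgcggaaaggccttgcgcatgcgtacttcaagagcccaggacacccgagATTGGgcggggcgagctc
Kif3b (chr2:153291166-153291415, plus strand): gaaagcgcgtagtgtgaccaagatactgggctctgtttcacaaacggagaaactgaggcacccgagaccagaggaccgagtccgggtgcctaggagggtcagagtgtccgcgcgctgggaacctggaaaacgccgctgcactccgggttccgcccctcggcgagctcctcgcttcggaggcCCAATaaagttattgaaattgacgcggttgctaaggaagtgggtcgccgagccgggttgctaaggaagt

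Kinesin-1, the main motor for organelles and vesicles, has the heavy chains Kif5a, Kif5b and Kif5c and the light chains Klc1 to Klc4, which bind cargo. Kif5b, the heavy chain of most tissues, had 5 probe sets past the filter, with changes of -0.42, -0.30, 0.06, 0.20 and 0.27. The set with the highest mean read 8.32, 8.70 and 8.89 at day 0 and 8.28 and 8.41 at day 4. Its groups overlapped, and the change of -0.30 had a 95% interval of -0.72 to 0.13 (limma adjusted p = 0.382). The set with the widest spread read 5.98, 7.14 and 7.69 at day 0, an SD of 0.87, which 0.404% of the 13868 filtered probe sets with 1 symbol equalled or exceeded. The next read 7.13, 8.11 and 8.52 (SD 0.71, equalled or exceeded by 0.851%). The set with the narrowest spread read 6.28, 6.29 and 6.27, an SD of 0.0097, and lay at 5.76 and 5.96 at day 4 (adjusted p = 0.114 when all probe sets were tested). Day 0 replicate 1 was the lowest untreated array on 4 of the 5 Kif5b sets.

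Day 0 replicate 1 was also the array that was low on the second Kif3a probe set. It lay more than 1 below both other day 0 arrays on 42 filtered probe sets with 1 symbol, 0.303% of them, of which 2 were kinesin sets, 1 each of Kif5b and Kif3a. Day 0 replicate 2 did so on 35 and day 0 replicate 3 on 8, with 0 kinesin sets each. The array maker's control probe sets gave a 3' minus 5' log2 signal, a sign of RNA quality, for actin of 1.43 to 1.65 at day 0 and 1.35 to 1.39 at day 4. For Gapdh it was 0.90 to 0.96 and 0.82 to 0.83. Day 0 replicate 1 was at 1.59 for actin and 0.96 for Gapdh. The part of RNA quality in the values of Kif5b and Kif3a was not tested.

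**Figure D4:**
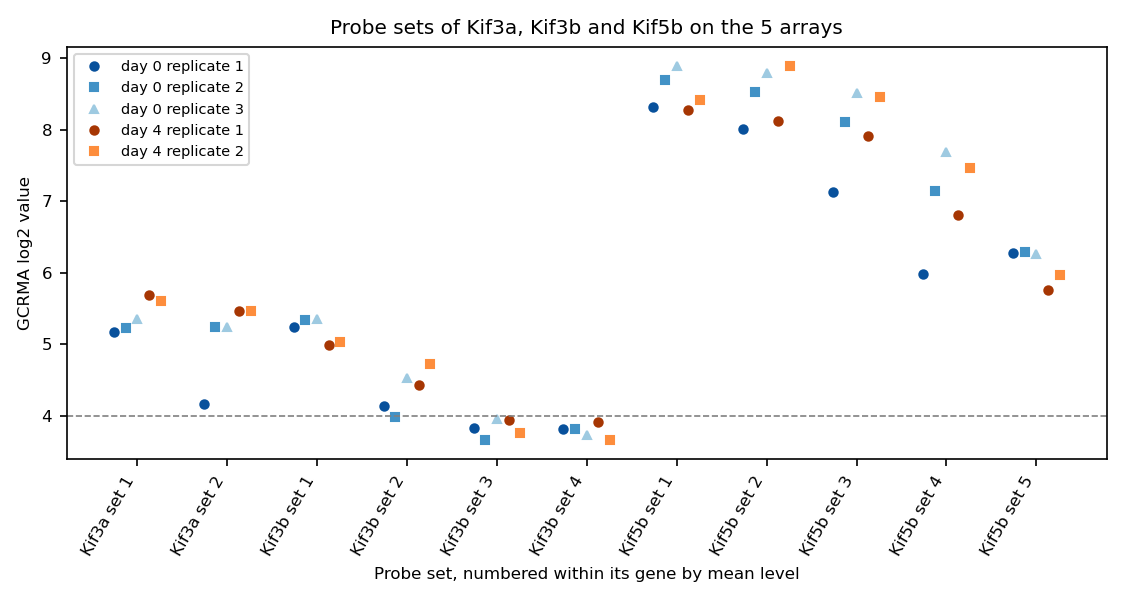
GCRMA log2 values (vertical axis) of the probe sets of Kif3a, Kif3b and Kif5b (horizontal axis) on the 5 arrays, blue for day 0 and orange or brown for day 4, with a dashed line at the level filter of 4. On Kif5b set 4 the day 0 arrays span 5.98 to 7.69, while on Kif5b set 5 they lie between 6.27 and 6.29.

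Kif5a, a heavy chain best known from neurons, had 1 probe set past the filter, at 4.21, 4.09 and 4.46 against 4.00 and 4.59. Its change of 0.04 had the widest interval of the transport class, -0.44 to 0.52. That set is of the type shared between transcripts (s_at), so the signal may not be of Kif5a alone. The other Kif5a probe set read at most 1.89 on any array. Kif5c, the other neuronal heavy chain, read at most 3.37 on any array. Klc1 read 7.94, 7.97 and 7.97 at day 0 and 7.62 and 8.02 at day 4. The day 4 pools stood on either side of the day 0 pools, and the change was -0.14 (adjusted p = 0.580). A Klc1 probe set under the filter on all arrays changed by 0.46, with the day 4 pools above the day 0 pools. Klc4 changed by -0.14 on its higher probe set and by 0.25 on the other. Klc3 was under the filter on all arrays, at 3.55, 3.79 and 3.45 against 3.27 and 3.30.

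Kinesin-3 motors carry vesicles and endosomes. Kif1c, a motor for Golgi and integrin vesicles, read 8.37, 8.50 and 8.49 at day 0 and 8.35 and 8.47 at day 4, with a change of -0.04 and a 95% interval of -0.28 to 0.19. Kif1b, which carries mitochondria and synaptic vesicle precursors, read 7.94, 8.01 and 8.01 against 7.85 and 8.00. These are among the narrowest intervals in the family, and the 5 Kif1b sets past the filter had changes from -0.07 to 0.15. Kif13a, a motor for recycling endosomes, read 5.02, 4.91 and 4.88 at day 0 and 4.98 and 5.41 at day 4. Day 4 replicate 2 lay above the day 0 range and day 4 replicate 1 within it, and the change was 0.26 (adjusted p = 0.343). Kif16b, which positions early endosomes, changed by -0.01 on each of its 2 probe sets. Kif1a, a neuronal motor of the same family, was never above 4.

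Kif2a depolymerizes microtubules, in the spindle and in growing cell processes. It had 3 probe sets past the filter, with changes of -0.14, 0.14 and 0.27. The highest read 6.39, 6.51 and 6.54 at day 0 and 6.30 and 6.39 at day 4, a change with an adjusted p of 0.453. Kif18a, a mitotic motor that dampens chromosome movement, was under the filter on all arrays, at 3.26, 3.16 and 3.26 against 3.10 and 3.09. Of the remaining transport kinesins, Kif21a and Kif21b, which regulate microtubule growth, changed by -0.18 and 0.08. Kif9, a motor of cilia, changed by -0.02 and Kif12 by 0.10. None of these 4 was above 4 on any array.

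The kinesin partners in transport, 29 genes fixed by name, gave 20 tested genes, of which 0 passed the limma threshold (3 at an unadjusted p under 0.05). Over all genes tested 2.85% passed and 21.2% had an unadjusted p under 0.05. The partners are of several kinds. They include the dynein and dynactin subunits of the motor that runs the opposite way, cargo adaptors and parts of the ciliary transport complex. Their median change was 0.08, with 13 above 0 and 7 below, beside a median of -0.02 over all genes. Without day 4 replicate 2 the median was -0.0093 and 1 partner was called higher, Pafah1b1 (Lis1), a regulator of dynein. Dync1h1, the dynein heavy chain, stood at 9.48 ± 0.081 (SD, n = 3) and 9.71 ± 0.061 (SD, n = 2; limma adjusted p = 0.236). The mean level of the measured members lay between 6.81 and 6.84 at day 0 and between 6.89 and 6.94 at day 4.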

How the data were processed

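The 5 arrays were 3 of untreated mice (day 0) and 2 of irradiated mice (day 4). The deposited log2 values were made by the authors using GCRMA, as per the submitters' processing notes. The GCRMA version is not given in the sources used here, nor whether 1 run covered all arrays. GCRMA normalization hides a change shared by most genes, and no detection calls were used. That the scale is log2 was judged from the values, 1.57 to 14.4 with array medians of 5.26 to 5.30. The platform annotation gave 20380 probe sets 1 symbol, 691 several and 1555 none, and 64 control probe sets were left out. Entrez identifiers matched the RefSeq gene table (GRCm38.p6) for 20351 of the 20380 and for all 27 kinesin genes. The array's build was not named, so coordinates are given only for RefSeq promoter windows.

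A log2 value above 4 on at least 2 arrays left 13868 probe sets with 1 symbol. The groups were tested by limma 3.58.1 (lmFit, eBayes; R 4.3.3), two-sided, with no covariate and Benjamini-Hochberg adjustment over 8940 genes (3 residual and 3.29 prior degrees of freedom). Intervals are at 95%, from limma, and the small number of arrays limits the precision. As far as the labels show, replicates 1 and 2 of the groups share only a number. Genes were named by role whatever their values, plus called genes of the family and of the partner lists, while Racgap1, Kifc1, Kifap3, Dync1h1, Pafah1b1 and Tpx2 and the choice of probe sets shown were added after their values were seen. The members and lists were chosen with earlier results of these data known. The alternatives were other normalizations, level filters, probe set summaries, variance models, a replicate block, a wider mitotic class and leaving out each array. Plots used matplotlib 3.10.9 and Python 3.11.15.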

Additional observations from a re-analysis of the deposited data

How the results depend on the processing

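The count of lower kinesin genes, 1 at the reported setting, was 0 with array weights, 0 with every probe set tested and 0 to 1 when single arrays were left out, the 1 being without day 4 replicate 2. The count of higher kinesin genes was 0 throughout. Genes called over the whole table numbered 418 with an intensity trend and robust fitting, 86 with array weights and 11 to 341 when single arrays were left out (140, 163 and 34 without day 0 replicates 1, 2 and 3, and 11 and 341 without day 4 replicates 1 and 2). With the replicate number as a block they numbered 481, with Kif22 the 1 kinesin gene (-0.86, adjusted p = 0.0278). In that fit day 0 replicate 3 had no partner, and the Kif22 change equalled that without this array. Replicates 1 and 2 deviated from their group means with correlations of 0.16 and 0.078 between day 0 and day 4. With only 2 day 4 arrays, their deviations mirror each other (correlation -1), so these values can neither show nor exclude a pairing. Kif22 kept its direction under the 13 alternatives in which it was tested as a gene, at -0.998 to -0.627. With both day 4 values below all day 0 values, leaving out 1 array could not turn the sign. Several other alternatives left the change at -0.81, as they used the same Kif22 values. Where both groups kept at least 2 arrays, the limma adjusted p of Kif22 was 0.0278 to 0.119.

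The mitotic median of -0.25 was -0.81 with a level filter at 6, which left Kif22 alone, -0.14 with the wider class, and -0.43 to -0.077 when single arrays were left out. The transport median of -0.04 was 0.052 when probe sets of a gene were averaged, 0.067 with every probe set, and -0.13 to 0.021 when single arrays were left out. With the mean of probe sets the change had the opposite sign for Klc4 (0.052), Kif3b (0.034), Kif1b (0.041), Kif1c (0.11), Kif2c (-0.055) and Kif2a (0.090), and with the replicate block for Kif16b (0.056), none of them called. Leaving out single arrays turned the sign of uncalled changes for Kif16b (-0.088 to 0.056), Kif5a (-0.26 to 0.34), Kif1b (-0.13 to 0.0090), Kif1c (-0.10 to 0.018), Klc1 (-0.34 to 0.058), Klc4 (-0.31 to 0.021) and Kif23 (-0.27 to 0.15). For partner genes in division, whose alternatives were added after the values were seen, lower calls numbered 2 at the reported setting and 0 to 4 over all settings. Of 212 single kinesin values, 191 kept direction and side of the threshold and 16 changed sign as given, which leaves 5 in which Kif22 was no longer called. Some of the 212 values repeat the same array values under another setting, so a direction kept there was fixed in advance. On the arrays, 10 of 27 genes lay under the level filter, where a change may go unseen.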
